A study of Mus musculus with 27 samples.

Results

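The uterine response of C3H mice to estradiol (E2, the main ovarian estrogen) was examined 24 h after injection against vehicle. The arrays were chosen by their sample titles, 3 labelled C3H with E2 at 24 h and 3 labelled C3H with saline, which makes 6 of the 27 arrays of the series. C3H is an inbred mouse strain, and the study set it beside C57BL/6 (B6) and their first-generation hybrid (F1) to ask how genotype shapes the uterine response to estrogen.

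All females came from one supplier at 8 weeks of age, were ovariectomised and then rested for 1 to 2 weeks, so that the uterus of every group, controls included, had lost its ovarian hormones. The treated group received one intraperitoneal dose of E2 (40.0 µg per kg) in 0.1 ml of saline that held 0.25% ethanol, and its uteri were collected 24 h later. Controls received the saline and ethanol alone, and the labels give no collection time for them. Whole uterus of 3 animals per group was frozen. Which animal an array came from is not labelled, and the p-values measure the spread between these arrays. The labelled RNA was hybridised to a 1-colour Agilent whole-genome array, and a level is the log2 processed intensity minus the 75th percentile of that array, so 0 marks a signal brighter than most probes. The C3H 2 h group, which shares the vehicle arrays, and the B6 and F1 groups under the same treatments serve only for comparison.

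E2 enters uterine cells and binds estrogen receptor alpha, a transcription factor present in epithelium, stroma and muscle. In an ovariectomised rodent a single dose starts an early phase, with immediate early genes and swelling from water uptake, and about a day later a growth phase in which epithelial cells replicate DNA, divide and begin to secrete defence proteins. Stromal cells take part through growth factors and through signals of the WNT, hedgehog and BMP families that pass between stroma and epithelium.

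Each array held 41174 probes, and 21866 genes had a probe well above background in every array of 1 or more of the 9 groups. The vehicle arrays correlated with each other across genes at r of at least 0.994, and the E2 24 h arrays at r of at least 0.992, where genes are not independent replicates. E2 24 h replicate 1 stood apart: 479 genes deviated by more than 1 log2 unit from the group mean on it, of them 442 above, against 156 and 124 on replicates 2 and 3. Among genes in the dimmest of 4 equal level bins its median excess over the other E2 arrays was 0.35. E2 24 h replicate 2 carried squamous epithelium markers, with Krt5 at −0.73, 3.77 and −1.70 and Krt14 at −2.10, 2.49 and −2.91 on replicates 1 to 3. The summed level of the 10 squamous markers was 4.25, 24.1 and 3.79 on those arrays and 3.84, 3.88 and 3.59 in vehicle. Vehicle replicate 3 carried adipocyte markers (summed level 10.3, 10.2 and 43.6 over the vehicle arrays). All vehicle arrays lay on one slide and the E2 arrays on others (replicate 1 on one, replicates 2 and 3 on another), so slide and treatment cannot be told apart.

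The label of whole uterus was checked against markers. The smooth muscle markers had summed levels of 859, 848 and 910.3 in vehicle and 1180.0, 1028 and 1115 with E2, with Actg2 at 3.74, 3.87 and 4.04 and then 5.30, 5.19 and 5.21. Markers of liver were also measured, with albumin (Alb) at 0.87, −0.10 and 1.22 in vehicle and −1.48, −2.10 and −2.47 with E2. 10 of 11 liver markers were called lower, and the median was −2.74. Their summed level went from a range of 2.56 to 6.12 to one of 0.532 to 0.888. Only 6 of the 11 cleared background in both vehicle and E2. With normexp background correction, described below, 2 of the 11 were called lower and the median was −0.38. The part of the liver markers in the other falls was not tested.

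After E2 the C3H uterus differed from vehicle in most of the genes measured. Calls were made with limma, in one model of the 9 group means, where the p adjusted by Benjamini and Hochberg across the genes fell under 0.05. In total 14718 of 21866 genes were called (67.3%), 5889 higher (26.9%) and 8829 lower (40.4%). Changes of at least 2-fold were fewer, with 1404 genes called higher (6.42%) and 2759 lower (12.6%). The balance turned with the size of the change: at 4-fold or more 352 genes were higher and 357 lower, at 8-fold 100 and 46, at 16-fold 33 and 10, and at 32-fold 9 and 4. The largest changes were therefore more often rises, and the modest ones more often falls.

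The split moved with scaling, and the median change of all genes was −0.16. Centring each array on its median moved that to 0.03 and gave 7713 higher and 6392 lower, and the unscaled values gave 6665 and 6697. With normexp background correction, which also shrinks the folds of dim genes (2210407C18Rik, described below, from 6.89 to 4.31), 2480 were higher and 2464 lower. Of the 246 called genes that are named here or in the closing observations, 77 were then no longer called; they are listed at the end. Each group below is therefore read beside −0.16. Without E2 24 h replicate 1, 14779 genes were called, 5496 higher and 9283 lower, and 13833 of the 14718 calls were shared with one sign (94%). E2 and vehicle arrays did not overlap in 15641 genes (71.5%).

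**Figure D1:**
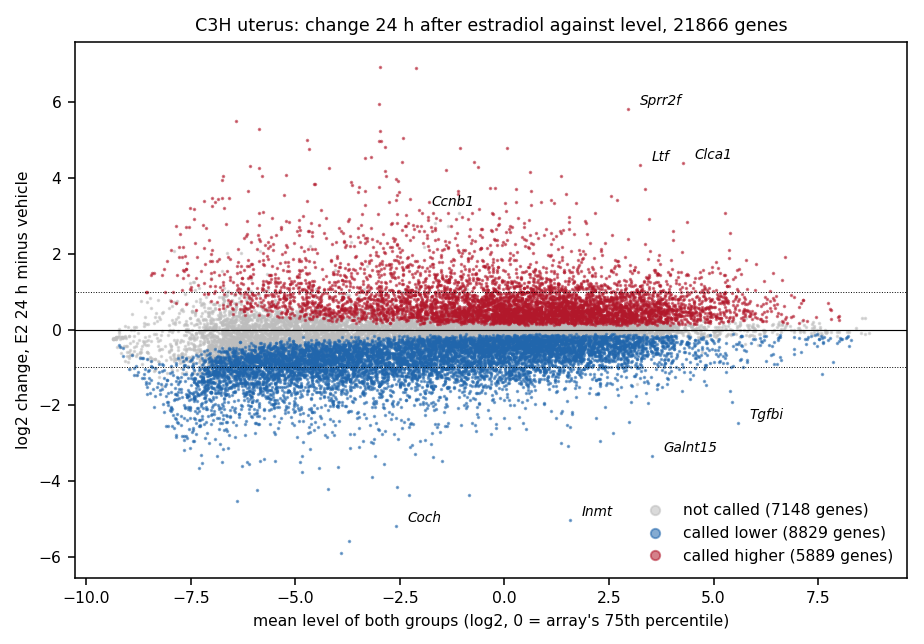
Log2 change 24 h after E2 (vertical axis) against the mean level of the vehicle and E2 arrays (horizontal axis, log2, 0 is the 75th percentile of an array) for 21866 genes of C3H uterus; red and blue points are genes called higher (5889) and lower (8829), dotted lines mark a 2-fold change. Dim genes lie mostly below 0, with a median of −0.55 in the dimmest of 4 equal level bins, and the largest rises reach above 6.

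Genes of cell division, DNA replication and the antiviral state moved as groups, and the letters before their start sites are given here because these groups share known promoter motifs. RefSeq promoters on GRCm38.p6 (250 bases before to 50 after a start) were matched by symbol for 61 of 70 mitosis genes, 35 of 45 replication genes and 35 of 52 interferon-induced genes. The cell cycle homology region, TTTGAA on either strand and bound by complexes that time late cell cycle genes, was found in 62.7% of the mitosis promoters and in 17.9% of all 32851 promoters. The CCAAT box was found in 71.6% and 37.4%. Its share over the lists searched ran from 31.2% (secretory and mucosal defence) to 76.2% (circadian clock, whose genes mostly fell), so it is not particular to mitosis. An E2F site (TTTGGCGC, TTTCCCGC or TTTCGCGC, either strand), known from genes of the start of DNA synthesis, was found in 37.2% of the replication promoters and 1.84% of all. The core of the interferon-stimulated response element (GAAA, any 2 bases, GAAA, either strand) was found in 54.8% of the interferon promoters and 3.44% of all. Among the 16692 promoters of genes tested these motifs were found, in the order given, in 13.3%, 37.3%, 2.85% and 3.1%. The palindromic estrogen response element (GGTCA, any 3 bases, TGACC) was found in 23 of all 32851 promoters (0.07%) and in 7 of the 16692 of genes tested. It was found in 0 of 1132 promoters of genes called at least 2-fold higher and in 3 of 1400 of those at least 2-fold lower (0.214%). These counts are too few to compare. All of these are letter matches and not tests of binding.

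The members shown have the largest rises among those whose 120 bases before the start hold the letters, leaving out promoters on a single chromosome. The bases are written 5′ to 3′ on the gene's strand, with the matches in capitals.

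For mitosis, the ubiquitin-conjugating gene Ube2c (chr2:164769809-164769928, plus strand), the spindle gene Fam83d (chr2:158767979-158768098, plus strand) and the topoisomerase gene Top2a (chr11:99024190-99024309, minus strand) hold the cell cycle homology region nearest the start and CCAAT boxes further out:
Ube2c: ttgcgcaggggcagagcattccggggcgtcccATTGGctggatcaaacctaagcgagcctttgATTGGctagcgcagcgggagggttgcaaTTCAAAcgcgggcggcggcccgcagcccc
Fam83d: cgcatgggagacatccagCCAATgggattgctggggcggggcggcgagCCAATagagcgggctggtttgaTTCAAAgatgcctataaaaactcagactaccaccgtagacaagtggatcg
Top2a: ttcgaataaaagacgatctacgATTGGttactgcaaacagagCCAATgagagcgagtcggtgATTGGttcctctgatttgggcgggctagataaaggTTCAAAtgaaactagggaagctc

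For replication, Orc1 (chr4:108579334-108579453, plus strand), a subunit of the origin recognition complex, and Mcm6 (chr1:128359706-128359825, minus strand), a subunit of the replicative helicase, hold E2F letters, which in Mcm6 overlap on both strands in the first match:
Orc1: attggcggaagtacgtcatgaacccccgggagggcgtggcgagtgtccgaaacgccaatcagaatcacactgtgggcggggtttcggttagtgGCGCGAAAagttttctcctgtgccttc
Mcm6: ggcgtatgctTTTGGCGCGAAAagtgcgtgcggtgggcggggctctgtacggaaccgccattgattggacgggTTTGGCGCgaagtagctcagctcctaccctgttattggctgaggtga

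For the antiviral genes, Oas3 (chr5:120777660-120777779, minus strand) and Oas1a (chr5:120907526-120907645, minus strand), both 2′-5′-oligoadenylate synthetases, hold the response element core, in Oas1a as overlapping matches:
Oas3: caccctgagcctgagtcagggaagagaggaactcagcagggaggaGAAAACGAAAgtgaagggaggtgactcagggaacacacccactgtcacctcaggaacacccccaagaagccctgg
Oas1a: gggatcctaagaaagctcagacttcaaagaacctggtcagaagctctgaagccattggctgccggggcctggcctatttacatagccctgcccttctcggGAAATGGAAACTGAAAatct

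The largest rises were in epithelial and secreted products. The small proline-rich gene Sprr2f, which encodes a cross-linked protein of the cornified envelope, stood at 0.64, −0.07 and −0.43 on the vehicle arrays and at 5.82, 5.91 and 5.85 with E2. The E2 arrays lay close together far above all vehicle arrays, a rise of 5.81 log2 (SE 0.33, 56.1-fold, limma adjusted p = 9.61e-12, n = 3 arrays per group). Its relative Sprr2d went from −5.46, −6.15 and −6.33 to −0.63, 1.41 and −0.87, with replicate 2, the array with squamous markers, above the other E2 arrays. Without that array its rise was 5.23 in place of 5.95. Sprr1a, of the same family, rose by 4.78, from −3.04, −3.48 and −3.82 to 1.13, 1.62 and 1.23.

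Among all genes well above background in both groups, the RIKEN gene 2210407C18Rik had the largest rise. It stood at −5.55, −5.51 and −5.61 in vehicle and 1.14, 1.47 and 1.40 with E2, a rise of 6.89 (SE 0.32, 119-fold). Serpinb5, the serpin maspin, rose by 5.24, the serpin gene Serpina9 by 4.97 and Wfdc18, a whey acidic protein family gene, by 5.06. Clca1, a secreted regulator of chloride channels and mucus, was already bright in vehicle at 2.65, 1.70 and 1.89 and reached 6.51, 6.46 and 6.43 (20.9-fold). Lcn2, the siderophore-binding lipocalin, rose from −1.98, −2.55 and −2.47 to 2.39, 2.40 and 2.56. The remaining genes of the 15 largest rises were Unc5cl (4.81), the retinol dehydrogenase gene Dhrs9 (4.55, with 2.72 at another probe), the secretory-pathway calcium pump gene Atp2c2 (4.51), Oit1 (4.42), the tissue kallikrein gene Klk1b5 (4.41) and Ifne (4.97), the type I interferon of reproductive epithelium.

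Further rises started from vehicle signals near background, so their folds are bounds, taken against the lowest signal well above background on each array. Chil1, a chitinase-like protein gene, was measured on 2 of 3 vehicle arrays and rose at least 108-fold. The vasoactive peptide gene Uts2 rose at least 25.9-fold and the P-type ATPase gene Atp13a4 at least 13-fold, both not well above background on any vehicle array. The chondroitin sulfotransferase gene Chst13 (at least 20.6-fold), the secreted-protein gene Fam3b (at least 18.3-fold) and the bacterial sensor gene Naip1 (at least 12.6-fold) were measured on 1, 2 and 1 of 3 vehicle arrays.

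The largest falls, like the largest rises, were taken only from genes whose vehicle and E2 arrays did not overlap. Inmt, an indolethylamine methyltransferase gene, stood at 4.13, 3.94 and 4.16 in vehicle and −1.13, −0.97 and −0.74 with E2, a 32.6-fold fall (log2 change −5.03, SE 0.14, limma adjusted p = 1.62e-15). It was also the called fall with the smallest adjusted p. The matrix gene Coch changed by −5.18, and its other probes fell less, the least by 1.75. Aldh1a3, which makes retinoic acid, changed by −4.37 and Wif1, a secreted WNT inhibitor, by −4.37. Galnt15, which starts mucin-type sugar chains, fell from 5.25, 5.06 and 5.28 to 1.81, 1.97 and 1.79.

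Tgfbi, a secreted adhesion protein gene, stood at 6.78, 6.85 and 6.78 in vehicle and 4.37, 4.45 and 4.22 with E2 (−2.46, SE 0.08). The rest of the 15 largest falls were in Mlana (−4.15), the myocilin gene Myoc (−3.89), the growth factor gene Fgf20 (−3.76), Lgi1 (−3.64), the synaptic vesicle gene Synpr (−3.62), the phosphatase gene Ptprt (−3.49), the apolipoprotein gene Apod (−3.47), the inhibitory receptor gene Lag3 (−3.35), the RNA gene Snhg11 (−3.34) and Apoa2 (−3.54), which is a liver marker of the list given above. By bound, the calcium-activated channel gene Ano2 was lower by at least 56.3-fold and the protease inhibitor gene A2ml1 at least 47.9-fold, each measured on 2 of 3 E2 arrays. The hair gene Krtap17-1 (at least 18.4-fold, 2 of 3 arrays), the fatty acid elongase gene Elovl3 (at least 10.3-fold), the potassium channel partner gene Kcnip2 (at least 10.1-fold) and Tmem52b (at least 8.44-fold) fell too, the last 3 not well above background on any E2 array.

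**Figure D2:**
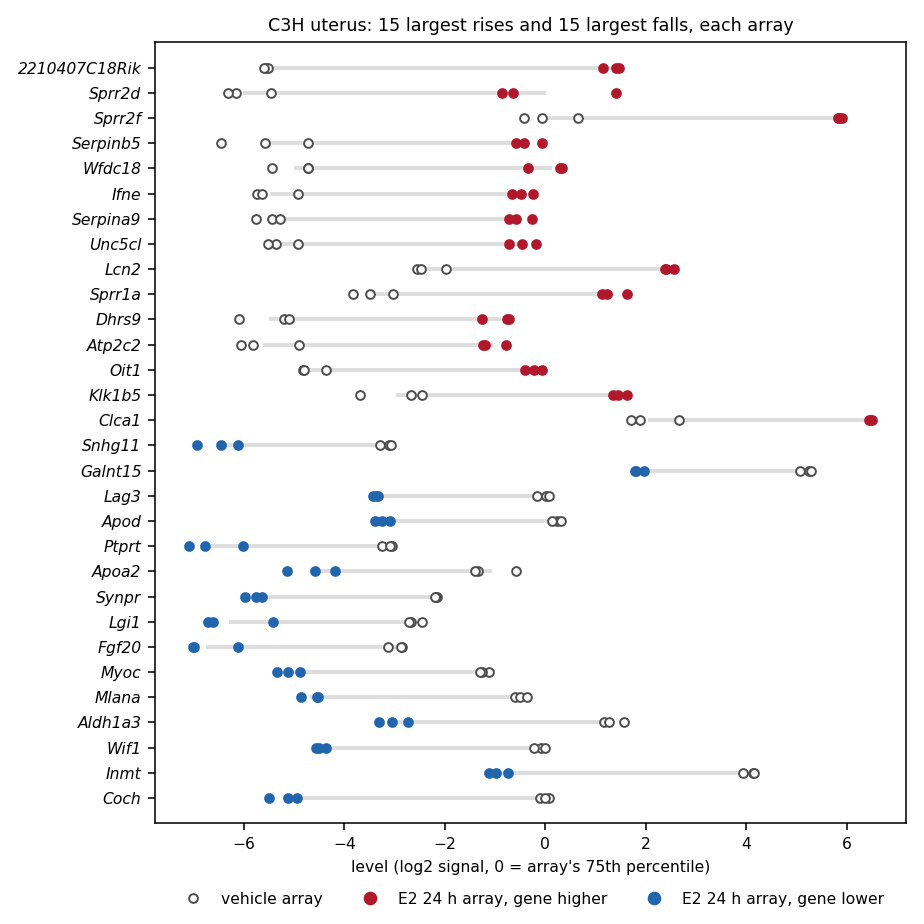
Levels (horizontal axis, log2 signal, 0 is the 75th percentile of an array) of the 15 largest rises and 15 largest falls on each C3H array; open circles are vehicle arrays, red and blue circles E2 24 h arrays, and grey bars join the group means. Only genes whose groups did not overlap were eligible, and Sprr2d, Lgi1 and Fgf20 have 1 E2 array apart from the others.

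The 5 rises with the smallest adjusted p were in the mitochondrial folate enzyme gene Aldh1l2 (3.45, SE 0.09), the GDP-mannose dehydratase gene Gmds (3.06, SE 0.09), the sterol enzyme gene Nsdhl (2.03, with 0.42 at its least responsive probe), the alkaline phosphatase gene Alpl (3.65) and the prolyl isomerase gene Fkbp11 (2.66). The 5 such falls, beside Inmt, Ano2 and Tgfbi, were in the transporter gene Abca8a (−1.97, SE 0.06) and 6330403K07Rik (−2.17).

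Secretory and mucosal defence genes rose as a group. Of 36 tested, 22 were higher and 3 lower, with a median of 1.57 beside −0.16 for all genes. Lactoferrin (Ltf), the iron-binding antibacterial protein long used as a marker of estrogen action in the mouse uterus, stood at 1.00, 0.78 and 1.44 in vehicle and 5.29, 5.50 and 5.44 with E2 (20.2-fold, SE 0.26 log2). Every E2 array was more than 3 log2 units above every vehicle array. The mucin genes Muc4 (4.30) and Muc1 (3.01) rose. The 3 that fell were the lungkine gene Cxcl15 (−1.91) and the angiogenins Ang4 (−1.27) and Ang (−1.16).

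Cornified envelope and squamous differentiation genes were split, with 18 higher, 8 lower and 17 not called of 43 (median 0.74). Beside the Sprr genes, Dmkn, a secreted protein gene of the epidermis, rose at least 3.53-fold and was not well above background in vehicle. S100a7a (−2.33), Cnfn (−1.08), the transcription factor gene Grhl1 (−0.94) and Sbsn (−0.84) fell. Krt5 (3.07, limma adjusted p = 0.0517) and Krt14 (2.18, 0.104), the basal layer keratins, were high on replicate 2 alone and were not called. The keratin family gave 12 higher and 5 lower of 39, led by the hair keratins Krt87 (3.80) and Krt86 (3.76) and by Krt12 (3.41), with the simple epithelial keratins Krt7 (2.35) and Krt19 (1.84) next. Of 13 general epithelial markers 10 were higher and 3 lower (median 1.05). In whole tissue, more cells of a type and more RNA per cell cannot be told apart.

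Cell division genes rose almost without exception. Of 70 genes of mitosis and cytokinesis, 69 were higher, none were lower, and the median was 2.37. The mean change of the members from the vehicle mean was 2.12, 2.36 and 2.17 on the E2 arrays and within −0.04 to 0.03 on the vehicle arrays. Ube2c, which targets cyclins for destruction, went from −2.11, −2.17 and −2.32 to 0.85, 1.18 and 0.90 (9.05-fold). Cyclin B1 (Ccnb1), the mitotic cyclin, went from −3.50, −3.71 and −3.61 to −0.69, −0.19 and −0.49 (8.9-fold). The kinase gene Melk (2.96), cyclin B2 (Ccnb2, 2.96) and the kinetochore gene Ska1 (2.95) followed, with E2 and vehicle arrays apart in each.

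DNA replication genes rose in step but by less. 43 of 45 were higher and none lower (median 0.91). The initiation factor Mcm10 went from −1.12, −1.20 and −1.24 to 1.56, 1.40 and 1.63, and Cdc6, which loads the helicase, from −3.83, −3.88 and −3.88 to −1.47, −1.60 and −1.31. Mcm6, whose promoter is printed above, stood at 4.28, 4.14 and 4.27 in vehicle and rose by 0.84, and Orc1 rose by 1.88. The histone chaperone gene Asf1b (2.23), the DNA methylation cofactor gene Uhrf1 (2.19) and the licensing inhibitor gene Gmnn (2.06) completed the largest rises.

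Supply of nucleotides and histones moved the same way. 20 of 27 nucleotide synthesis genes were higher and none lower (median 0.80), led by thymidine kinase Tk1 (2.95), the ribonucleotide reductase subunit Rrm2 (2.50) and the mitochondrial folate enzyme Mthfd2 (1.73). Of 37 histone genes 27 were higher and 5 lower; H2ac4 rose by 2.63 and the linker histone H1f5 by 2.59. These copies are near-identical, so their probes may share signal. 29 of 40 repair genes were higher, among them Parpbp (2.54), Fancd2 (2.29) and Exo1 (2.06). The 4 lower ones were Bbc3 (−0.84), Gadd45b (−0.77), Mdm2 (−0.44) and Atm (−0.32), the last not called with median centring.

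Cyclins, their kinases and inhibitors changed in both directions. 29 of 50 were higher and 11 lower. Cdk1 (2.65), Cdc25c (2.58) and cyclin A2 (Ccna2, 2.57), which drive S phase and mitosis, rose. The inhibitors Cdkn1c (−1.51) and Cdkn1b (−0.65), with cyclin D2 (Ccnd2, −1.31) and Cdk6 (−1.18), fell. Among forkhead factors the mitotic regulator Foxm1 rose by 2.21. In that family 19 of 32 members were called lower (59.4%), beside 40.4% of all genes. Under normexp 5 of the 32 were lower, and the family median moved from −0.59 to −0.06. Of the apoptosis list 16 of 42 were higher and 15 lower (median −0.05, or 0.14 with median centring), with the survival genes Birc5 up (2.85) and Bcl2 down (−1.67).

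**Figure D3:**
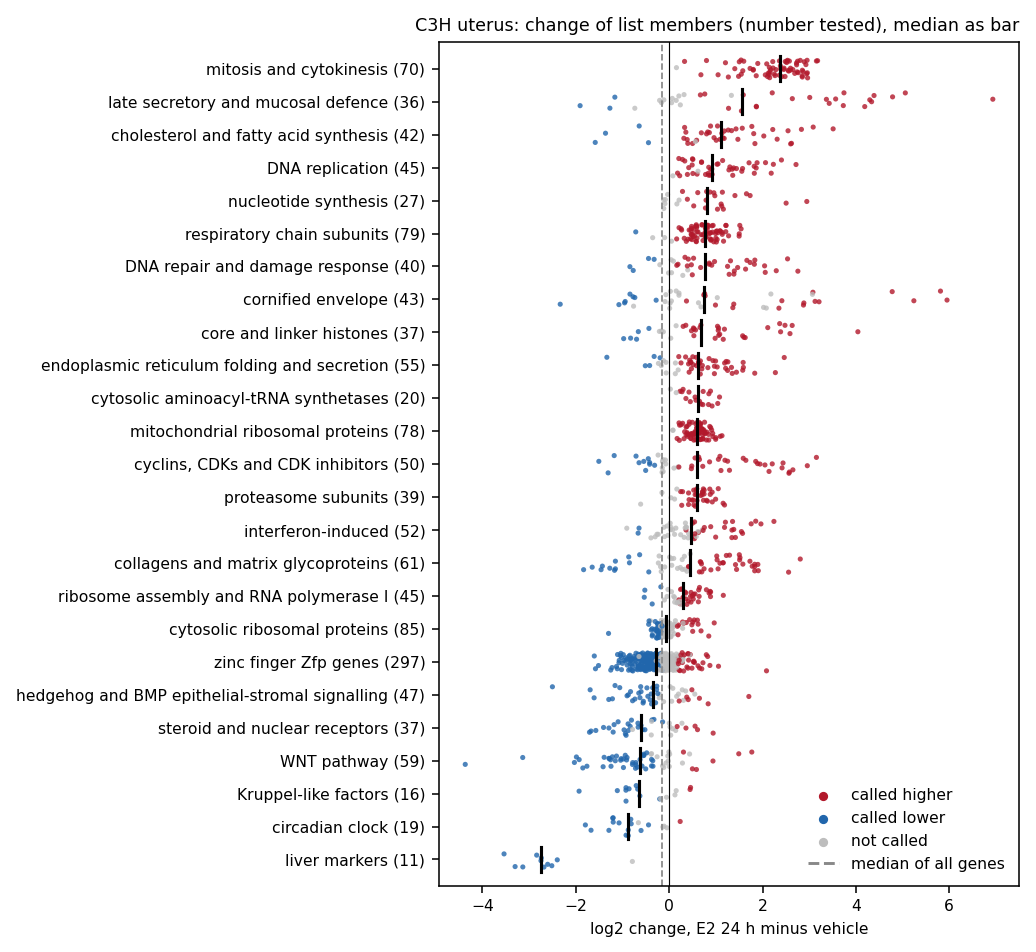
Log2 change 24 h after E2 (horizontal axis) of each tested member of 25 gene lists in C3H uterus; the number tested is in brackets, red points were called higher, blue lower and grey not called, black bars are list medians and the dashed line is the median of all genes (−0.16). Mitosis lies furthest right (median 2.37) and the liver markers furthest left (−2.74, or −0.38 under normexp).

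Genes of biosynthesis and energy rose as groups. Cholesterol and fatty acid synthesis had the highest median of these groups, with 37 higher and 4 lower of 42 (median 1.11). Fdps, which makes farnesyl pyrophosphate, went from 0.24, 0.02 and 0.14 to 2.90, 2.99 and 3.01 (7.12-fold), with all E2 arrays above all vehicle arrays. The mevalonate pathway enzymes Mvd (2.62) and Idi1 (2.60) rose too. The sterol exporters Abcg1 (−1.58) and Abca1 (−1.36), with Acacb (−0.64) and Insig2 (−0.44), were the 4 that fell.

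In mitochondria, 75 of 79 respiratory chain subunits were higher (median 0.77), among them Ndufa11 (1.54) and Atp5g1 (1.50), and 1, the muscle-type subunit Cox8b, was lower (−0.72). 76 of 78 mitochondrial ribosomal protein genes were higher (median 0.60, led by Mrpl54 at 1.13). Proteasome subunits gave 34 of 39 higher (median 0.59) and tRNA synthetases 18 of 20 (0.61), with none lower in these 3 groups. Cytosolic ribosomal proteins had 16 higher, 28 lower of 85 and a median of −0.08, which turned to 0.12 with median centring.

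Genes of the secretory pathway rose as well. Of 55 endoplasmic reticulum genes 41 were higher and 5 lower (median 0.63). The retrieval receptor gene Kdelr3 rose by 2.46, the disulfide isomerase gene Pdia5 by 1.83, the transcription factor gene Creb3l1 by 1.59 and the mucin-folding gene Agr2 by 1.58. The stress-induced death factor Ddit3 changed by −1.33 and the oxidase gene Ero1b by −0.51, the latter not called with median centring. In glycolysis and the pentose phosphate pathway 18 of 30 were higher, led by G6pdx (1.80), the entry enzyme of the pentose phosphate pathway, and Eno1 (1.65). The pyruvate dehydrogenase kinases Pdk4 (−1.48) and Pdk1 (−0.79) were among 7 that fell.

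Receptors and developmental signals mostly fell. Of 37 steroid and nuclear receptors, 5 were higher and 23 lower (median −0.60). The estrogen receptor alpha gene Esr1 went from 3.73, 3.81 and 3.71 to 2.99, 3.1 and 3.17 (−0.66), while another of its probes gave 0.12 and the mean over its probes was not called. The progesterone receptor gene Pgr, a classic estrogen target, went from −1.75, −1.70 and −1.78 to −0.74, −0.97 and −0.70 (1.92-fold). The bile acid receptor gene Nr1h4 (−1.71) and the thyroid hormone receptor gene Thrb (−1.41) fell.

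The WNT pathway gave 6 higher and 40 lower of 59 (median −0.62), a direction kept under each scaling. Among ligands, Wnt7b (1.49) and Wnt5a (0.94) rose and Wnt10a (−2.03), Wnt6 (−1.99), Wnt7a (−0.79) and Wnt4 (−0.71) fell. Notum, an enzyme that inactivates WNT proteins, went from −2.40, −1.84 and −2.13 to −5.43, −4.90 and −5.45, so that with Wif1 the largest falls of the list were in secreted inhibitors. The nuclear effector gene Lef1 changed by −1.93. In hedgehog and BMP signalling 28 of 47 were lower and 7 higher. The epithelial ligand Ihh (−1.61), its stromal receptor Ptch1 (−2.50) and the effector Gli1 (−1.22) fell, and the activin subunit gene Inhbb rose (1.71).

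Growth factor systems were mixed, with 16 higher and 28 lower of 55. The growth factor Igf1 went from 1.26, 1.20 and 1.41 to 2.48, 2.31 and 2.43 (2.17-fold) and its receptor gene Igf1r from 2.79, 3.04 and 2.74 to 1.43, 1.69 and 1.47 (−1.33). The binding protein gene Igfbp3 fell 7.75-fold, from 3.73, 3.79 and 3.79 to 0.89, 0.86 and 0.69. The ligand rose, and its receptor and binding protein genes fell, on every E2 array. Igfbp2 (1.73) and Igfbp5 (1.24) rose, as did Hgfac (2.31), the protease that activates HGF. Hbegf (−1.67) and Fgfr2 (−1.63) fell.

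Retinoid genes changed strongly in both directions, 9 higher and 8 lower of 25. Of the retinaldehyde dehydrogenases, Aldh1a2 rose (1.10) and Aldh1a3 (−4.37) and Aldh1a1 (−1.71) fell. The retinoic acid binding protein gene Crabp1 rose by 3.05 and Crabp2 at least 4.08-fold from a signal not well above background. In the prostaglandin list (8 higher, 8 lower of 22) the receptor genes Ptger3 rose (1.23) and Ptger4 (−0.96) and Ptgfr (−0.86) fell.

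Matrix genes rose more than they fell. Of 61 collagens and matrix glycoproteins 32 were higher and 12 lower (median 0.45). Col1a1, the main chain of fibrillar collagen, went from 4.07, 3.67 and 4.62 to 6.82, 6.60 and 6.61 (5.89-fold). Col6a2 (2.81), Col5a1 (1.91), Col1a2 (1.90) and Col6a1 (1.83) rose, and the adhesion protein gene Thbs1 (−1.83), the hyaluronan synthase gene Has3 (−1.65) and Fbln1 (−1.46) fell. Among proteases and inhibitors Timp1 rose (2.36) and Mmp10 (−2.33) and Timp3 (−1.61) fell, with 14 higher and 16 lower of 42, or 16 and 14 with median centring. In the contraction list (8 higher and 15 lower of 32, or 12 and 11 with median centring, which turned the median from −0.18 to 0.02) the smooth muscle actin gene Actg2 (1.35) and desmin (Des, 0.85) rose. The receptor genes Avpr1a (−1.78) and Adra1b (−1.45) fell, and the oxytocin receptor gene Oxtr had a difference of −0.23 (adjusted p = 0.201).

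Transport and junction genes changed by type. 23 of 49 water, ion and acid-base genes were higher and 15 lower. The epithelial calcium channel gene Trpv6 went from −1.24, −1.58 and −1.61 to 2.53, 2.82 and 2.72 (18-fold) and the carbonic anhydrase gene Car2 from 1.88, 1.41 and 1.26 to 5.24, 5.12 and 5.32 (13.1-fold). The water channel gene Aqp5 rose (3.29), and the bicarbonate transporter gene Slc4a7 (−2.99), Car4 (−2.97) and the endothelial water channel gene Aqp1 (−1.46) fell. In tight junctions Cldn2, which forms a cation-permeable pore, rose (3.84) and the sealing claudin gene Cldn1 fell (−2.60). Of 13 connexins 8 were higher, led by Gjb2 (3.33), and Gjc1 alone was lower (−1.10). The myometrial connexin gene Gja1 had a difference of −0.06. The transporters with the largest rises were the nucleoside carrier gene Slc28a3 (3.70) and the anion exchanger gene Slc26a4 (3.27).

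Interferon-induced genes rose more often than they fell. Of 52 tested, 24 were higher and 2 lower (median 0.46). Oas3 went from −5.14, −5.28 and −5.29 to −3.02, −2.86 and −3.10 (4.74-fold) and Oas1a from 0.32, −0.09 and 0.15 to 2.02, 2.19 and 2.08 (3.91-fold). Oas2 (1.85), the antiviral GTPase gene Mx1 (1.76) and Oasl1 (1.57) were next, and Ifit2 (−0.66) and Ifi203 (−0.65) fell. The ligand gene Ifne rose from −4.92, −5.75 and −5.64 to −0.67, −0.25 and −0.47. The type I receptor gene Ifnar1 fell by 0.30 (not called with median centring). The mean change of the list was 0.58, 0.56 and 0.51 on the E2 arrays.

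Other immune genes gave no common direction. Complement had 5 higher and 15 lower of 31, and its median turned from −0.26 to 0.04 under normexp. Factor B (Cfb), of the alternative pathway, rose from 1.02, 0.63 and 1.28 to 4.18, 4.52 and 4.51, with C3 (1.27) and Cfi (2.56), and C4b (−1.16), of the classical pathway, fell. Hc (−2.71) and Mbl2 (−2.45) also fell. Both are made mainly by liver, and the liver markers fell with them, by less under normexp (median −0.38). Among cytokines, the epithelial interleukin 1 family genes Il1f8 (3.98) and Il1f6 (3.90) and the chemokine genes Cxcl17 (2.45) and Ccl28 (1.91) rose, and Ccl17 (−2.97) and Ccl24 (−2.27) fell. Of 34 antigen presentation genes 3 were higher and 6 lower, which turned to 6 and 4 with median centring. The class II gene H2-Aa was among the lower (−0.70, not called with median centring).

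Markers of resident and blood cells were also counted, to be read beside 26.9% of all genes higher and 40.4% lower. The T cell (45.5%) and endothelial (50%) shares lower lay near that of all genes, and no share was tested. Macrophage markers had 2 higher and 1 lower of 11, with Adgre1 at 0.07 and Csf1r at 0.20, neither called. Natural killer cell markers had 6 of 10 lower and T cell markers 5 of 11, with none higher, and under normexp these medians moved from −0.73 to 0.00 and from −0.81 to −0.01. Endothelial markers had 1 higher and 5 lower of 10; von Willebrand factor (Vwf) changed by −1.49 and Pecam1 by 0.04, the latter not called. Neutrophil markers had 2 of 8 higher, Mpo by 2.33. The calgranulin gene S100a9 stood at −2.23, −2.41 and −1.34 in vehicle and 0.22, 0.52 and −0.51 with E2 (difference 2.07, limma adjusted p = 0.0595), apart on all arrays but not called. The fast skeletal muscle gene Tnni2 rose from 2.67, 2.79 and 2.76 to 5.41, 5.22 and 5.35, and of 11 skeletal muscle markers 5 were higher and 3 lower (median 0.17). Of 12 stromal markers 7 were lower and 4 higher, from decorin (Dcn, −0.87) to the neurotrophin receptor gene Ngfr (4.05). Of 8 ovary markers 4 were lower and none higher (median −0.58, or 0.11 under normexp). Cyp17a1 and Amh, of that list, had differences of 0.07 and −0.04 and were not called.

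Genes of the circadian clock fell. Of 19 circadian genes 14 were lower and 1, Bhlhe40, was higher (0.24); the median was −0.88. The output factor Hlf went from 1.50, 1.57 and 1.51 to −0.18, −0.37 and −0.25 (−1.79) and the clock repressor Per2 from 0.80, 0.80 and 0.66 to −0.37, −0.57 and −0.42 (−1.21). Nr1d1 (−1.29) and Rora (−1.20), nuclear receptors of the clock, fell, and the activator gene Arntl had a difference of −0.05 (adjusted p = 0.808). The labels give no clock time of collection, so time of day and treatment cannot be told apart.

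Transcription factor families had more members lower than higher. Of 297 Zfp genes 166 were lower and 32 higher, a share of 55.9% lower beside 40.4% of all genes, or 104 and 59 with median centring. Of 16 Kruppel-like factors 10 were lower, the glucocorticoid-responsive Klf15 most (−1.93), and Klf4 was higher (0.46). Foxa2, a factor of the uterine glands, fell (−1.29). The differences between these shares and the background were not tested.

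At 2 h, against the same vehicle arrays, the lists stood elsewhere (background 23.9% higher and 37.2% lower). Early estrogen response genes had a median of 2.94 at 2 h and −0.21 at 24 h, with 30 and then 10 of 33 higher. Mitosis had a median of −0.11 at 2 h with 6 higher. Ribosome assembly was higher at 2 h (0.70, 35 of 45) than at 24 h (0.30, 29). Interferon-induced genes had a median of −0.42 at 2 h with 17 lower, and Ifne stood at −1.31 at 2 h and 4.97 at 24 h. Trpv6 stood at −2.37 and 4.17, Wnt4 at 2.78 and −0.71, Ihh at 0.71 and −1.61, Per2 at 1.18 and −1.21, and Notum at 0.35 and −3.14. Both times share 3 vehicle arrays, so no test of the order in time is drawn from these values.

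**Figure D4:**
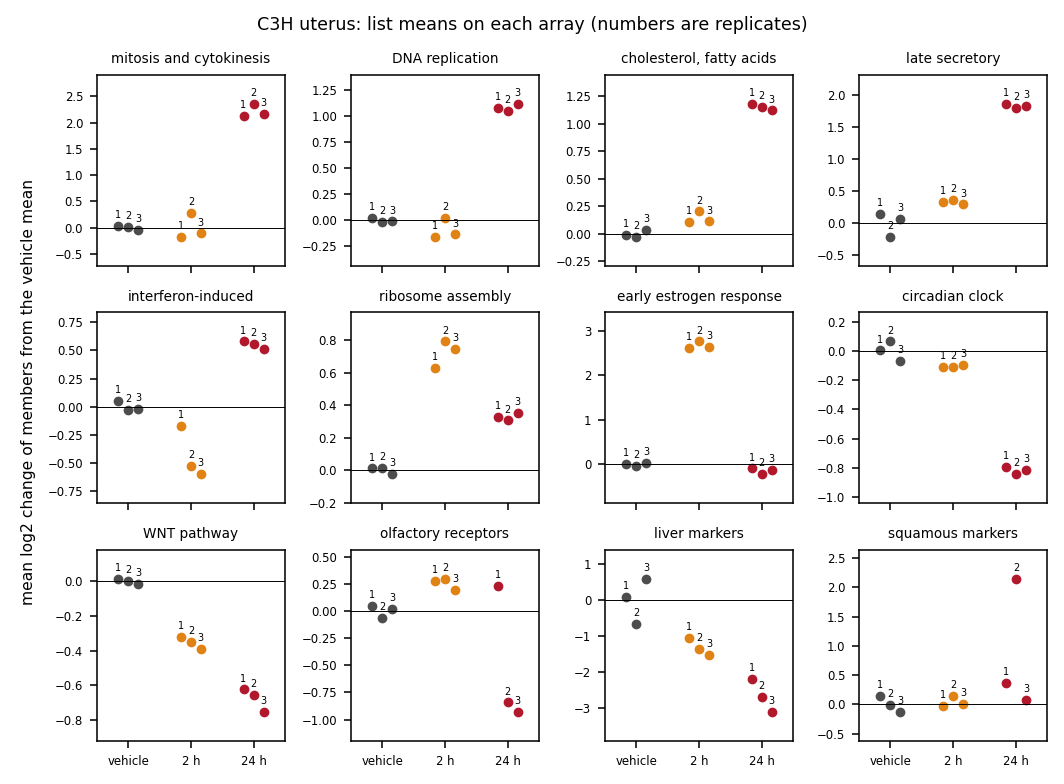
Mean log2 change of the members of 12 lists from the vehicle mean (vertical axis, scales differ between panels) on each C3H array, grouped as vehicle, E2 2 h and E2 24 h; numbers are replicates. The mitosis list lies above 2 on all E2 24 h arrays, the olfactory receptors set replicate 1 apart from replicates 2 and 3 at 24 h, and the squamous markers set replicate 2 apart.

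The olfactory receptor family shows how replicate 1 enters a count. These genes are dim in uterus, and 391 passed. Of them 144 were lower (36.8%, beside 40.4% of all genes) and 9 higher (2.3%, beside 26.9%). Without replicate 1 the family had 236 lower and 4 higher, while the lower count over all genes went from 8829 to 9283. The mean change of the family was 0.23, −0.84 and −0.93 on E2 replicates 1 to 3, and its median turned from −0.46 to 0.14 under normexp background correction.

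The 24 h response of C3H was set against that of B6 and F1 by the difference of responses within the same model, in which no arrays are shared between strains. Within each strain the vehicle and E2 24 h arrays lay on different slides, so slide and strain cannot be told apart in these differences. The C3H response differed from B6 in 4158 genes (19%), above in 1239 (5.67%) and below in 2919. From F1 it differed in 838 genes (3.83%), above in 161 (0.736%) and below in 677. For the replication genes the C3H response was below that of B6 in 42 of 45 and below that of F1 in 28, against 13.3% and 3.1% of all genes, and above in none. Their medians were 0.91 in C3H, 1.55 in B6 and 1.43 in F1. The medians of all genes, beside which these and the next strain medians are read, were −0.16, −0.06 and −0.04. With normexp background correction only 1 gene in all differed from F1, as given below. Mcm10 rose by 2.72, 3.87 and 4.18 in C3H, B6 and F1 (limma adjusted p of the difference 0.00477 from B6 and 0.00461 from F1), and Orc1 by 1.88, 3.27 and 3.12 (5.01e-05 and 0.00133). For mitosis the C3H response was below B6 in 16 and above in 2 of 70, and below F1 in 18 and above in 1. The medians were 2.37, 2.91 and 3.14 in C3H, B6 and F1. Mitochondrial ribosomal proteins were below B6 in 39 of 78 and below F1 in 2. The G1 cyclin gene Ccnd1 changed by −0.45 in C3H, 0.55 in B6 and 0.15 in F1 (2.63e-05 and 0.0103). For the interferon-induced genes, with medians of 0.46, 0.08 and 0.71, the difference was called in 2 genes against B6 and 1 against F1.

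The tissue kallikreins, serine proteases encoded by a cluster of near-identical genes whose probes may share signal, gave 2 higher and 11 lower of 19 in C3H. Their median was −0.41 in C3H, 2.27 in B6 and −0.39 in F1. Klk1b24 stood at 4.05, 4.39 and 4.12 in C3H vehicle and 1.33, 1.99 and 1.93 with E2, so all its E2 arrays were lower. It changed by −2.44 in C3H, 2.84 in B6 and −2.92 in F1 (limma adjusted p of the difference 1.06e-04 from B6 and 0.783 from F1). Klk1b26 (−2.33, 2.81 and −2.24), Klk1b21 (−2.34, 2.27 and −2.46) and Klk1b27 (−1.81, 2.44 and −1.71) were alike in sign, and another Klk1b26 probe gave 0.45 in C3H. The C3H response was below that of B6 in 11 of the 19 and below that of F1 in 2. Klk1b5 (4.41, 6.02 and 5.01) and Klk1b11 (3.01, 3.77 and 3.34) rose in all 3 strains.

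Single genes also differed. In 505 genes that were well above background in a C3H group the response differed from both B6 and F1 in one direction, 103 above and 402 below. Crtac1, a matrix protein gene, stood at −3.31, −4.56 and −5.06 in C3H vehicle and −3.20, −3.93 and −3.62 with E2, overlapping groups with a difference of 0.73 that was not called, whereas it rose by 5.88 in B6 and 5.24 in F1. Its other probe gave 1.405 in C3H, and with median centring its rise of 0.92 in C3H was called (limma adjusted p = 0.0207). The difference of responses was −5.16 (SE 0.47, limma adjusted p = 1.25e-06) from B6 and −4.51 (4.93e-05) from F1. Pbp2 stood at −6.47, −6.29 and −6.32 in vehicle and −6.11, −6.70 and −6.54 with E2, with changes of −0.10, 3.16 and 2.31 in C3H, B6 and F1; the first was not called and turned to 0.36 with quantile normalization. Bpifb5, of a family of secreted lipid-binding defence proteins, fell in C3H from −0.30, −0.06 and −0.11 to −1.93, −1.56 and −1.85 (−1.62) and stood at 1.81 in B6 and 0.89 in F1. In the other direction, 2210407C18Rik rose by 6.89, 2.65 and 4.93, and Uts2 by 5.0, 1.66 and 2.29 as fitted values with C3H vehicle not well above background. Etnppl, a phospholipid enzyme gene, had fitted changes of 3.66, −1.21 and 1.15, and in C3H rose at least 6.18-fold from a vehicle signal not well above background. Gpr63, Tspan10, Prl, Olfr689 and Olfr1442 were measured on all C3H vehicle arrays but on 1, 0, 0, 1 and 0 of 3 C3H E2 arrays, and Gpr63, Tspan10 and Olfr1442 turned from a fall to a difference of 0.09, 0.05 and 0.10 under normexp. Of the genes with the largest or most precise changes, Oit1 rose more in C3H (4.42) than in B6 (3.33) and F1 (3.35), although its difference from F1 lost the call in 7 of 18 alternatives, and A2ml1 fell more by the fitted values (−5.58, −2.21 and −3.50). Fam3b had fitted changes of 4.26, 6.08 and 5.84, the first resting on a vehicle level measured on 2 of 3 arrays, and its difference from F1 lost the call in 9 of 18 alternatives. Alpl (3.65, 4.75 and 4.37) rose less in C3H, and Abca8a fell less (−1.97, −3.14 and −2.39).

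The counts depended on background correction: with normexp background correction 148 genes differed from B6 and 1 from F1. The cause was not tested. With array weights 8342 and 5093 genes differed. The weights ran from 0.21 (B6 vehicle replicate 1) to 3.08 (B6 vehicle replicate 3), with 0.36 for C3H E2 24 h replicate 1. Without E2 24 h replicate 1 the count against F1 was 1912, and without replicate 2, replicate 3, vehicle replicate 1 or vehicle replicate 3 it was 349, 409, 359 and 387.

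**Figure D5:**
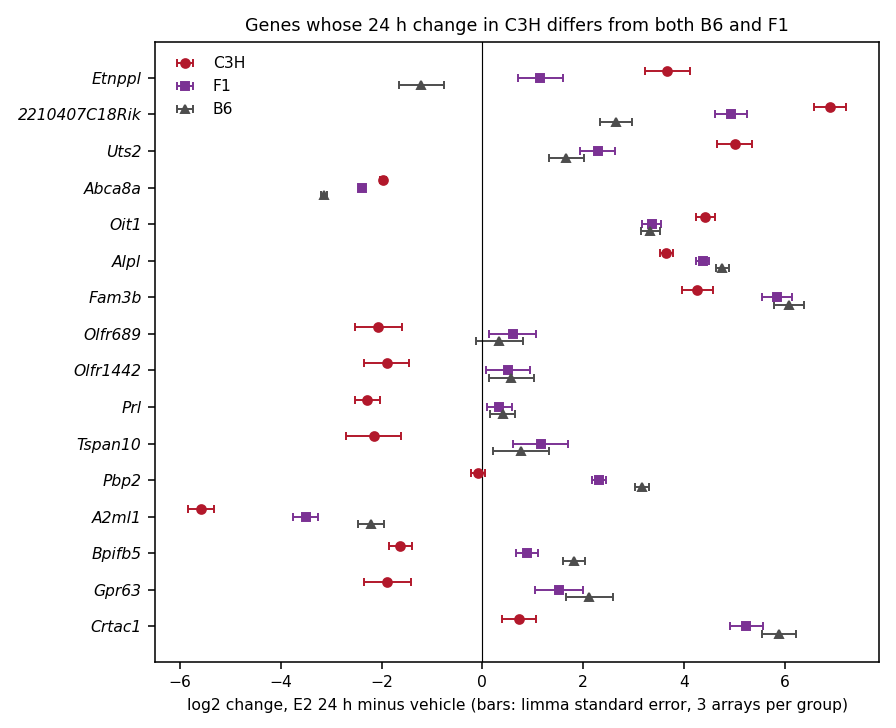
Log2 change 24 h after E2 (horizontal axis) with its limma standard error in C3H (red circles), F1 (purple squares) and B6 (grey triangles) for 16 named genes whose C3H response differed from both others; 3 arrays per group. Crtac1 lies at 0.73 in C3H against 5.88 in B6, and Etnppl at 3.66 against −1.21.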

How the data were processed

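RNA of mouse uterus was hybridised to 1-colour Agilent whole-genome arrays, 27 in all (500.0 ng total RNA, 1.65 µg labelled cRNA, 17 h, per the labels' protocols). The deposited files hold spot intensity from Agilent Feature Extraction 9.5, background-subtracted by the scanner software per the file headers. From the deposited processed intensity, log2 minus each array's 75th percentile over non-control spots was computed, spots with outlier marks were left out, spots of a probe were averaged and the brightest probe stood for a gene. Genes with a probe well above background in every array of 1 or more groups entered one limma (3.58.1) fit of 9 group means over 27 arrays with eBayes, so C3H groups share a spread with all others. Differences between strains were contrasts of responses in that fit, adjusted over all 21866 genes. The adjusted p threshold was 0.05. The number of arrays limits the precision. The steps were tested on simulated data.

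For an "at least" fold, each dim array was given either its own probe signal or, if higher, the dimmest signal that counted there as well above background, and the bright mean was divided by the mean of these. Gene symbols are RefSeq symbols matched to each probe by accession, or else by symbol or unambiguous synonym. The 8455 of 41174 probes without such a match kept the name in the array file.

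Named genes were the 15 largest rises and falls measured in both groups, 6 each way by bound, the 5 with the smallest adjusted p each way, up to 5 rises and falls of a list with its ligands, receptors or rate-limiting enzymes, and the 10 with the largest strain differences from both B6 and F1. The 15 largest and the 6 by bound were taken only from called genes whose E2 and vehicle arrays did not overlap. For lists of 12 or fewer members the rule was to name each; the marker lists of other cell types are given here by counts and examples instead. Ccnd1, Gja1, Arntl and Muc4 were chosen after their values were seen. The members and lists were chosen with earlier results of these data known. Alternatives in background correction, scaling, filter, probe choice, weights, blocks and left-out arrays are given at the end. Some results are not reported here.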

Additional observations from a re-analysis of the deposited data

Results flagged for a closer look

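The response at 24 h differed between C3H and the other strains by the difference of responses in the limma model, in 4158 genes against B6 and in 838 against F1. Slide and strain cannot be told apart in these differences. The values that follow are the C3H response minus that of B6 and then minus that of F1, on the log2 scale, for 16 named genes; all 32 differences had adjusted p under 0.05 with all arrays. The C3H response was above both for 2210407C18Rik (4.25 and 1.96), Etnppl (4.88 and 2.51), Uts2 (3.34 and 2.71), Abca8a (1.17 and 0.42) and Oit1 (1.09 and 1.07). It was below both for Crtac1 (−5.16 and −4.51), Bpifb5 (−3.43 and −2.51), A2ml1 (−3.38 and −2.08), Pbp2 (−3.26 and −2.41), Fam3b (−1.81 and −1.58) and Alpl (−1.11 and −0.72). Dim genes below both were Gpr63 (−4.01 and −3.40), Tspan10 (−2.93 and −3.31), Prl (−2.68 and −2.62), Olfr689 (−2.41 and −2.67) and Olfr1442 (−2.47 and −2.41). With 1 C3H vehicle or E2 24 h array left out in turn, 1 to 7 of the 32 lost the call, 7 of them without E2 replicate 2 and 1 without E2 replicate 1. Under normexp background correction 18 lost the call and 12 turned. The differences from F1 lost the call most often, in 9 of 18 alternatives for Fam3b, 7 for Oit1, 6 for Olfr1442 and 5 for 2210407C18Rik.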

How the results depend on the processing

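Under normexp 4944 genes were called, 2480 higher and 2464 lower, 148 differed from B6 and 1 from F1; the cause was not tested. Unscaled values left 2285 differing from B6, and array weights gave 8342 from B6 and 5093 from F1. Leaving out 1 array at a time gave 13538 to 14779 called genes, 5449 to 5676 higher, 7871 to 9283 lower, 2863 to 4867 differing from B6 and 349 to 1912 from F1. Under normexp the change of Gpr63 (0.088), Olfr1442 (0.10) and Tspan10 (0.045) turned, as did the differences from B6 and F1 of Gpr63 (0.39 and 1.22), Tspan10 (0.51 and 1.08), Prl (0.41 and 1.15), Olfr689 (0.49 and 1.07) and Olfr1442 (0.52 and 1.33), and from F1 of A2ml1 (0.11) and Pbp2 (0.30); Pbp2 changed by 0.36 under quantile normalization. Of the named genes, 167 were called in one direction under each of the 19 alternatives. The 77 that lost the call under normexp were Adra1b, Ang4, Apoa2, Atm, Atp13a4, Avpr1a, Bhlhe40, C3, Car4, Ccl17, Ccl24, Ccl28, Cdc25c, Cdc6, Chst13, Cldn1, Cldn2, Cnfn, Cox8b, Crabp2, Creb3l1, Cyp2a5, Dmkn, Elovl3, Ero1b, Etnppl, Fam3b, Fam83d, Fancd2, Fgf20, Gpr63, Grhl1, Gsta1, Gsta2, Gstm6, Gstt4, H2-Aa, H2ac4, Has3, Ifi203, Ifit2, Ihh, Il1f6, Kcnip2, Klf4, Klk1b11, Klk1b27, Krtap17-1, Lgi1, Mbl2, Mmp10, Mx1, Naip1, Notum, Oas3, Olfr1442, Olfr689, Orc1, Parpbp, Prl, Ptch1, Ptgfr, Ptprt, Rrm2, S100a7a, Serpina1b, Serpinc1, Slc26a4, Snhg11, Stc1, Synpr, Tmem52b, Tspan10, Uts2, Wnt10a, Wnt5a and Wnt7b. Under other settings Atm, Ero1b, Esr1, Gpr63, H2-Aa and Ifnar1 lost the call. Of the named genes that were not called, 6 were called under some alternative, Crtac1 among them.

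Replicate numbers did not pair the arrays: the deviations of same-numbered vehicle and E2 arrays correlated at 0.02, 0.08 and −0.10. With the replicate block, 14534 genes were called, 5814 higher and 8720 lower, 3784 differed from B6 and 687 from F1. With slide as a random block 14675 were called. Signal near background limits the dim genes, whose changes shrank under normexp, and 3 arrays per group limit the precision.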

Other observations

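Genes of detoxification and of hepatic secreted proteins divided within families. Of 24 glutathione S-transferases, enzymes that conjugate reactive compounds, 10 were higher and 9 lower. The alpha class genes Gsta1 (1.73) and Gsta2 (1.58) rose, and the mu class genes Gstm7 (−2.73) and Gstm6 (−2.52) and the theta class gene Gstt4 (−3.33) fell. Gstm7 stood at −0.49, −0.24 and −0.37 in vehicle and −3.10, −2.94 and −3.27 with E2, with no overlap. Of 65 cytochrome P450 genes 7 were higher and 37 lower (median −0.66, or −0.03 under normexp), with Cyp2a5 (−2.78) among the falls and Cyp2f2 (2.57) among the rises, both of foreign compound metabolism.

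Among serpins, Serpina1e rose from −3.38, −4.02 and −3.63 to −1.79, −0.89 and −1.65, with Serpina1d (2.12) and Serpina1b (1.92), near-identical genes of the antiprotease alpha-1-antitrypsin whose probes may share signal. Antithrombin (Serpinc1) fell from −2.94, −3.86 and −2.50 to −4.76, −5.17 and −5.42. All are made in liver, and the liver markers were lower with E2 (summed level 4.46, 2.56 and 6.12 in vehicle and 0.888, 0.759 and 0.532 with E2). Under normexp the median of the liver markers was −0.38, and their part in these changes was not tested. In the glucose and nutrient transporters the choline transporter-like gene Slc44a4 rose by 3.06 and the sodium-glucose transporter family gene Slc5a9 by 2.96. The calcium-activated potassium channel gene Kcnn4 rose by 2.23. Of the early estrogen response list, the receptor accessory gene Ramp3 was still higher at 24 h (3.08, 4.44 at 2 h), and the hormone gene Stc1 (−2.69, −2.79 at 2 h) and Egr1 (−1.26, 2.92 at 2 h), an immediate early transcription factor, were lower; both times share the vehicle arrays.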
